A study of Mus musculus with 4 samples.

Results

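Acp5+ Cd72+ cells of the mouse aortic arch were described by single-cell RNA sequencing (scRNA-seq). Acp5 (ENSMUSG00000001348, chromosome 9 of mm10 from 22126727 to 22135711) encodes tartrate-resistant acid phosphatase, an enzyme best known from osteoclasts, and Cd72 (ENSMUSG00000028459, chromosome 4 from 43446462 to 43454628) encodes a C-type lectin receptor best known from B cells. Cells were selected on their raw counts of UMIs, the sequence tags by which copies of 1 captured mRNA are counted as 1 molecule. A selected cell had at least 1 UMI of Acp5, 2 of Cd72 and 1 of Ptprc (CD45, the pan-leukocyte marker), none of Lyve1, Cd79a, Flt3 or Pdgfra, and at most 2 of Myh11. Of 14148 cells that passed the limits on genes and mitochondrial UMIs, 56 were selected. They were set against the 1593 other cells with at least 1 UMI of both Csf1r (the receptor for the macrophage growth factor CSF1) and Ptprc, called other phagocytes, and against the 623 of these that also met the exclusions on Lyve1, Cd79a, Flt3, Pdgfra and Myh11, called Lyve1-negative phagocytes. The levels of these 9 genes are a consequence of the selection and were not tested.

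There was 1 library for each of 4 conditions. Lox_CTR came from the pooled arches, with their branches and perivascular tissue, of 4 normocholesterolemic Nrf2 flox/flox mice (label genotype Nrf2Cdh5Lox), which received saline and a standard diet. KO_CTR came from 4 mice labelled normocholesterolemic Nrf2Cdh5tKO, with the same saline and diet. Lox_HFD and KO_HFD came from 3 atherosclerotic mice each, of the same 2 genotype labels, which received an AAV8 vector with a liver-dependent promoter and a high-fat diet for 21 weeks. Vector and high-fat diet always went together and cannot be told apart, so that diet below stands for both. All mice were male, were 3 months old at the start and carried floxed alleles of Nfe2l2, the gene of the transcription factor Nrf2. In Nrf2Cdh5tKO mice Cre is driven by the promoter of Cdh5, which is active in endothelium and in the precursors of part of the blood cells, so that macrophages can carry the excision as well. With 1 pooled library per condition no test between conditions was run, and all intervals cover counting error only. Levels are given as CPM, the UMIs of a gene scaled to a total of 1000000 UMIs in the same cells, in the order Lox_CTR, KO_CTR, Lox_HFD and KO_HFD unless stated.

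The libraries held 12276546 to 98754487 UMIs, and 30 barcodes occurred in more than 1 library, none of them among the selected cells. The targeted gene was read first. In cells with UMIs of Cdh5 and Pecam1 and none of Ptprc, which numbered 79, 45, 26 and 25, Nfe2l2 was at 159, 301, 172 and 346 CPM. It was thus not lower under either Nrf2Cdh5tKO label. These counts do not separate transcripts with and without the excised last exon, so they check nothing about the excision, and both libraries are named by their labels only.

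Macrophages of the arterial intima lie under the endothelium, most of all at curvatures exposed to disturbed flow, where they take up lipid early in atherosclerosis. They differ from the adventitial resident macrophages, which carry Lyve1 and scavenger receptors, and from monocytes newly arrived from blood. Matrix metalloproteinases such as macrophage elastase (Mmp12) and collagenase 3 (Mmp13) cut elastin and collagen, and cathepsin S (Ctss) is a lysosomal protease that trims the invariant chain (Cd74) of MHC class II and also degrades elastin. The position of a cell in the vessel wall was not measured here, so the cells are named by their defining genes and not by a layer.

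The name macrophage held for 50 of the 56 cells. The other 6, of which 2 were in Lox_CTR, 2 in KO_CTR, 1 in Lox_HFD and 1 in KO_HFD, went against it. They carried 4 to 9 UMIs of Cd3e and 3 to 16 of Cd3d, both parts of the T cell receptor complex, no UMI of Csf1r and at most 1 UMI of the complement gene C1qa or of Ctss. None of them had a UMI of Mmp12, Mmp13 or Cd207. Their level of Cd72 was 2 or 3 UMIs, at the lower limit of the selection. All 50 other cells had UMIs of C1qa, Cd68 and Ctss, 49 had Ms4a7 and MHC class II H2-Ab1, 48 had Adgre1 (F4/80) and 47 had Csf1r. None of the 56 was called a doublet. The cells with Cd3e are kept in the values below, and the numbers of genes called without them are given where they differ. Near the limits, 9 of the selected cells had exactly 2 UMIs of Cd72 and 18 exactly 1 of Acp5. Just outside lay 32 cells with Acp5 but 1 UMI of Cd72, of which 15 had at least 2 UMIs of Cd3e and 3 had Mmp12, and 81 cells with at least 2 UMIs of Cd72 but none of Acp5, of which 72 had Csf1r and 22 had Mmp12.

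Promoters are printed for 4 of the 15 genes with the largest increase described below (H2-M2, Mmp12, Mmp13 and Itgax), for the marker Cd207 and for the selection gene Cd72, so that the sequence upstream of these genes can be read beside their levels. Each line gives the 100 bases before the transcription start in RefSeq (GRCm38.p6), 5′ to 3′ on the strand of the gene. Mmp12 has 2 annotated starts, and the sequence before the downstream one is given. Capitals mark exact matches to TGANTCA, a motif of AP-1 factors, to GAGGAAG on either strand (CTTCCTC as printed), a motif of the myeloid factor PU.1, and to TATAAA, the TATA box.
Mmp12, chr9:7347274-7347373, forward strand: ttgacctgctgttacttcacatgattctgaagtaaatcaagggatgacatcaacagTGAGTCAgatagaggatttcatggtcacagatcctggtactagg
Mmp13, chr9:7272414-7272513, forward strand: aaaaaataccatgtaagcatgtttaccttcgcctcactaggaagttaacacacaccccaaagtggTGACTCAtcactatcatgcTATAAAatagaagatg
Cd207, chr6:83677858-83677957, reverse strand: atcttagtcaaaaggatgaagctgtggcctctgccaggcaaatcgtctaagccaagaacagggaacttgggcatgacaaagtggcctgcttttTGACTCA
Itgax, chr7:128129450-128129549, forward strand: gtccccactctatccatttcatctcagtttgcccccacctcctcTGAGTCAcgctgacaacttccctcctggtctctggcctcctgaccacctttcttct
H2-M2, chr17:37483555-37483654, reverse strand: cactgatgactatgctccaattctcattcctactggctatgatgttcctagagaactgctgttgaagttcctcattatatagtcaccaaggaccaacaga
Cd72, chr4:43454627-43454726, reverse strand: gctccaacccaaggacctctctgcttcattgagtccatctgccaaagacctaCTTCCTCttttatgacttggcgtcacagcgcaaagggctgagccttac
TGANTCA began 44, 35, 7 and 56 bases before the downstream start of Mmp12 and the starts of Mmp13, Cd207 and Itgax. It was not found in the windows of H2-M2, Cd72, Acp5 or Ctss. The window before the upstream start of Mmp12, not printed, did not hold TGANTCA either and held GAGGAAG 87 bases before that start. Of the 15 genes with the largest increase against other phagocytes, 10 had a promoter in the reference, and 5 of these 10 held it in the 250 bases before a start (Bcl2a1a, F11r, Itgax, Mmp12 and Mmp13). Of the 12 with the largest decrease, 11 had a promoter and 1 held it (Cd209f). GAGGAAG was held by 3 of the 10 and 3 of the 11, and TATAAA by 1 of the 10 and 4 of the 11. Over all 32851 promoter windows the share with TGANTCA on either strand was 6.75%, with GAGGAAG 10.6% and with TATAAA 12.4%. A match of letters is a description of the window and shows no binding.

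Acp5+ Cd72+ cells were present in each library and made up a few percent of the phagocytes. They numbered 26, 10, 5 and 15, or 3.05% (2.00 to 4.44), 2.82% (1.36 to 5.13), 3.21% (1.05 to 7.32) and 5.23% (2.95 to 8.47) of the selected cells and other phagocytes together, with exact Clopper-Pearson 95% intervals. Without the cells with Cd3e the shares were 2.82%, 2.27%, 2.58% and 4.90%. The intervals of all 4 libraries overlap, so a difference in abundance between diets or labels was not detectable at this depth. Over all libraries the share was 3.40% (2.58 to 4.39), and 3.04% without the cells with Cd3e. It was 5.26% when 1 UMI of Cd72 was enough and 2.31% when 2 UMIs of Acp5 were required, so that its size depends on the limits chosen. The selection needs at least 4 UMIs and so leans to cells with more of them. The median was 11377.5 UMIs per selected cell and 10365 per other phagocyte, with a range of 2850 to 49137 among the former.

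**Figure D1:**
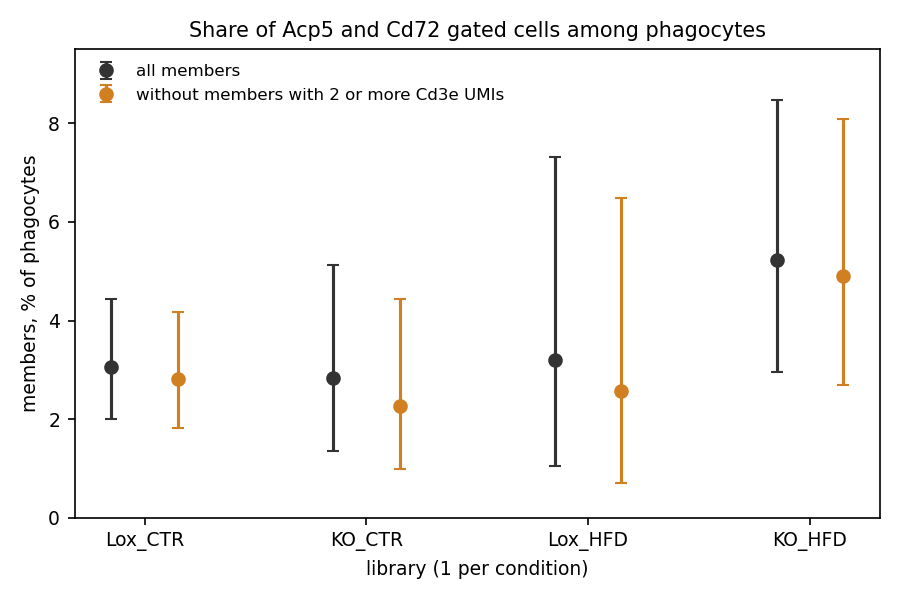
Share of Acp5+ Cd72+ cells among phagocytes (y axis, percent) in each of the 4 libraries (x axis), with all selected cells in black and without the cells with 2 or more Cd3e UMIs in orange; lines are exact 95% intervals. The shares run from 2.82% to 5.23%, and the intervals of all libraries overlap.

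Mmp12, Mmp13, Cd207 and Ctss were named for these cells from earlier results of the same libraries, so their levels are a description and no independent evidence. Mmp12 (chromosome 9 from 7344381 to 7369499) was at 1684, 1427, 1869 and 1690 CPM in the selected cells and at 72.2, 51.1, 36.2 and 83.2 CPM in other phagocytes. Its levels summed over the selected cells lay above those of other phagocytes in each library, with a log2 fold change of 4.86 ± 0.23 (SE, 4 pairs). Cell by cell it was less even, since Mmp12 had UMIs in 22 of 26, 4 of 10, 4 of 5 and 12 of 15 cells, and 1 cell of KO_CTR held 91 of the 191 UMIs there. Mmp13 (chromosome 9 from 7272514 to 7283331) was at 343, 702, 103 and 642 CPM against 30.5, 29.6, 4.46 and 9.71, with a log2 fold change of 4.66 ± 0.29. Its summed level varied more between libraries than that of Mmp12, was lowest in Lox_HFD and was higher than in other phagocytes in 4 of 4. Cd207 (chromosome 6 from 83671215 to 83677857), which encodes langerin, the lectin of Langerhans cell granules, was at 1442, 224, 0 and 83.5 CPM against 54.7, 3.53, 0 and 1.30. Its level thus came mostly from Lox_CTR, no UMI was found in Lox_HFD in either cell set, and without Lox_CTR too few UMIs remained to test it. Ctss (chromosome 3 from 95526786 to 95556403) was at 2476, 2465, 3531 and 3161 CPM against 1098, 966, 1848 and 1383, a smaller but even difference of 1.21 ± 0.19.

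Counted per cell, the metalloproteinases were found in most of the selected cells and in few other phagocytes. Among the 50 cells without Cd3e, 42 had a UMI of Mmp12, 36 of Mmp13, 27 of Cd207 and 25 of H2-M2. Among other phagocytes the shares were 4.83%, 6.21%, 2.20% and 1.88%. To compare cells of unequal depth, each was thinned to 2500 UMIs, which left out 54 other phagocytes and none of the 50. The expected shares were then 75.5% against 3.23% for Mmp12, 48.6% against 3.22% for Mmp13, 36.1% against 1.45% for Cd207 and 44.8% against 1.13% for H2-M2. In 1988 smooth muscle cells (many UMIs of Myh11, none of Ptprc), which should lack it, a UMI of Mmp12 was found in 0.503%, whereas C1qa and Lyz2, abundant transcripts of macrophages, were found in 26.7% and 67.2% of them. Abundant macrophage transcripts were thus widespread in cells that should lack them and Mmp12 was not. Mmp12 was also at a far lower level than C1qa and Lyz2 in other phagocytes, so these shares do not compare transcripts of equal abundance.

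Across all genes, selected cells and comparison cells were summed per library and the 4 pairs of sums were tested with edgeR's quasi-likelihood test, with the library as a block and a Benjamini-Hochberg adjusted p below 0.05. Against other phagocytes 330 of 7893 genes were higher (4.18%) and 650 were lower (8.24%), and without the cells with Cd3e the numbers were 356 and 637. Against Lyve1-negative phagocytes 252 of 6573 genes were higher (3.83%) and 287 were lower (4.37%), and 262 and 310 without the cells with Cd3e. The median log2 fold change over all genes was -0.08 and -0.04. Left out one at a time, the libraries bore unequally on these numbers. Without Lox_CTR, which held 26 of the 56 cells, 205, 459, 108 and 125 genes passed in the same order. Of the 330 and 650 genes, 141 and 340 passed in the same direction without each single library and without the cells with Cd3e.

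Genes are named below by the size of their change among those past the threshold, with at least 50 CPM in the cell set where they were higher and the same direction in all 4 libraries. The largest increase was that of H2-M2, a nonclassical MHC class I gene on chromosome 17 (37480851 to 37483552). It was at 669, 1561, 651 and 527 CPM in the selected cells and at 23.5, 16.3, 1.67 and 7.12 CPM in other phagocytes. It was higher in the selected cells in each library, with a log2 fold change of 6.16 ± 0.30 against other and 6.18 ± 0.32 against Lyve1-negative phagocytes (adjusted p = 4.1e-23 and 1.4e-09, edgeR). A few cells held much of it, since H2-M2 had UMIs in 14 of 26, 4 of 10, 1 of 5 and 6 of 15 cells, and 2 cells of KO_CTR held 78 and 85 of the 209 UMIs there. Zmynd15, a zinc finger protein gene, was at 299.8, 306, 103 and 219 CPM against 10.5, 22.0, 3.90 and 6.48, a difference of 4.63 ± 0.27. Cadm1, an adhesion molecule of the immunoglobulin family, was at 213, 105, 171 and 151 CPM against 9.96, 11.1, 2.79 and 10.4, and rose by 4.22 ± 0.32. Dnase1l3, a secreted nuclease that digests DNA in chromatin, rose by 4.05 ± 0.37, and its increase against Lyve1-negative phagocytes was 4.73 ± 0.41. All 4 were higher in each of the 4 libraries.

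The next genes by size of increase against other phagocytes had varied roles. Scimp, a membrane adaptor of immune signalling, rose by 3.08 ± 0.25 on the log2 scale, with levels between 154 and 239.95 CPM in the 4 libraries. F11r, the junctional adhesion molecule A, rose by 3.08 ± 0.39, and Cd69, an early activation antigen, by 3.06 ± 0.35. Nes, the intermediate filament nestin, rose by 2.85 ± 0.31, Itgax, which encodes the integrin chain CD11c, by 2.66 ± 0.26 and Basp1, a membrane-bound signalling protein, by 2.63 ± 0.21. Bcl2a1a, a survival gene of the Bcl2 family with near-identical copies between which reads cannot be assigned with certainty, rose by 2.62 ± 0.22, and AU020206 by 2.61 ± 0.42. Il7r, the receptor chain for interleukin 7 and a T cell gene, rose by 2.62 ± 0.34 with all selected cells and by 1.61 without the cells with Cd3e. All of these were also past the threshold against Lyve1-negative phagocytes, where Ms4a7, a tetraspanning membrane protein gene of macrophages, was also among the leading genes with 2.77 ± 0.27. The call of Il7r in that comparison was lost without the cells with Cd3e (0.68).

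**Figure D2:**
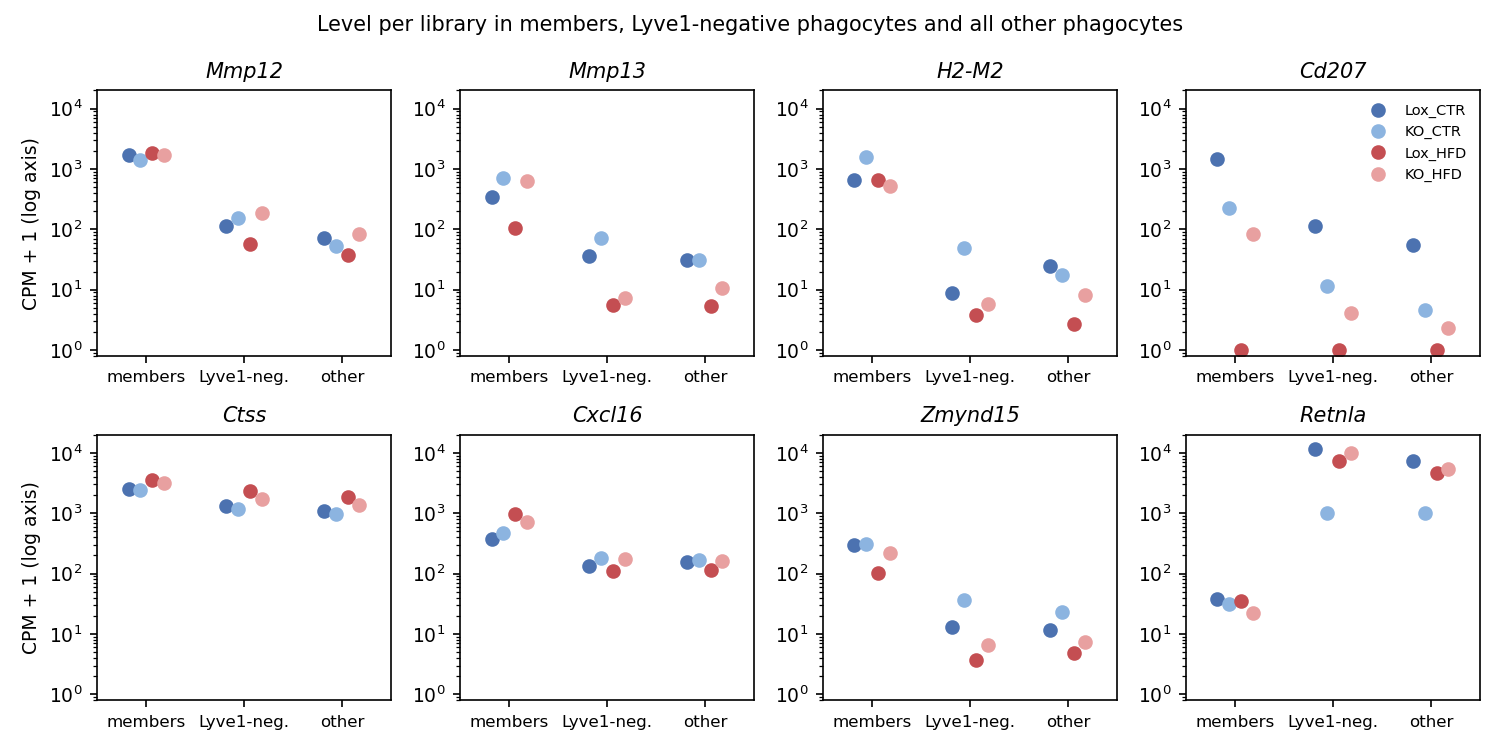
Levels of 8 genes (y axis, CPM plus 1 on a log scale) in each library, in Acp5+ Cd72+ cells, Lyve1-negative phagocytes and other phagocytes (x axis); each point is the sum over 1 library. In all 4 libraries Mmp12, Mmp13, H2-M2, Ctss, Cxcl16 and Zmynd15 lie higher and Retnla lies lower in the selected cells, and Cd207 is at 0 in Lox_HFD.

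Among metalloproteinases and their inhibitors 3 genes were higher and 7 lower of 10 tested against other phagocytes (median log2 fold change -2.18). Against Lyve1-negative phagocytes 3 were higher, 3 lower and 3 not past the threshold of 9 tested (median 0.10). The counts were the same without the cells with Cd3e. The third gene that rose besides Mmp12 and Mmp13 was Mmp14, the membrane-bound metalloproteinase that activates others. It was at 51.9, 29.9, 103 and 141 CPM against 14.8, 18.7, 33.4 and 21.4, with a log2 fold change of 1.95 ± 0.34 against other and 2.54 ± 0.36 against Lyve1-negative phagocytes. Mmp9 (gelatinase B), which with Acp5 is typical of osteoclasts, had 1 UMI in all 56 cells and fell by 5.55 on the log2 scale (SE 0.74) against other phagocytes, and its lower level against Lyve1-negative phagocytes lost its call without Lox_CTR (not tested). Mmp19 had no UMI, against 37.9 CPM in other phagocytes, and was at least 9.22-fold lower (3 counts over the 56 cells taken as the floor). Mmp2, Mmp3 and the inhibitors Timp1, Timp2 and Timp3 were lower than in other phagocytes, with log2 fold changes of -4.72, -2.96, -3.37, -0.98 and -2.81, but Mmp3, Timp2 and Timp3 were at about the level of Lyve1-negative phagocytes (log2 fold changes 0.14, 0.10 and -0.03, not past the threshold) and Mmp2 and Timp1 were not tested there. Cells with Pdgfra or more than 2 Myh11 UMIs were excluded from the selected cells but not from other phagocytes. The part of this exclusion in these lower levels was not tested. Adam8, a membrane-bound metalloproteinase of leukocytes, was lower in both comparisons (-1.54 and -2.54), with the first call lost without KO_HFD (-1.30).

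Of 12 osteoclast-associated genes 6 could be tested against other phagocytes and 1 of these, Mmp9, passed, in the direction of lower level. Against Lyve1-negative phagocytes 2 of 5 passed, both lower, Mmp9 and Dcstamp, a gene of osteoclast fusion, whose log2 fold change of -1.72 ± 0.47 lost its call without Lox_CTR (-1.49), KO_CTR (-1.56) or KO_HFD (-1.77). Ctsk (cathepsin K, the collagenase of osteoclasts) had 3 UMIs in the 56 cells, Atp6v0d2 had 2 and Itgb3 had 1, and Calcr and Oscar had none. Tnfrsf11a, which encodes RANK, the receptor for the osteoclast factor RANKL, was at 37.5, 59.8, 34.3 and 46.9 CPM against 24.2, 46.2, 31.2 and 37.9 (0.49 ± 0.35, not past the threshold, and 1.01 ± 0.36 against Lyve1-negative phagocytes, not past it either). Ocstamp, also a gene of osteoclast fusion, had too few UMIs in the comparison cells to be tested and was at 34.6, 7.47, 103 and 36.5 CPM against 1.58, 0.272, 5.02 and 3.24, above other phagocytes in 4 of 4 libraries and 18.6-fold higher over all of them (26 UMIs against 37).

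Most lysosomal genes did not pass the threshold. Of 14, 3 were higher (Ctss, Ctsh and Lgmn), Ctsl was lower and 10 did not pass, with a median log2 fold change of -0.02, and against Lyve1-negative phagocytes 4 of 13 were higher and none lower (median 0.38). Without the cells with Cd3e, 5 were higher in both comparisons. Ctsb and Cst3, the cathepsin B and cystatin C genes, were among the most abundant and did not pass in either comparison. Ctsh (0.67 ± 0.19) lost its call without Lox_CTR (0.60) or KO_CTR (0.59), and Lgmn (0.63 ± 0.20) without Lox_CTR (0.51) or KO_HFD (0.54), so that of the 3 only Ctss was past the threshold without each library in turn. Ctsl was lower than in other phagocytes (-0.91 ± 0.22) and not past the threshold against Lyve1-negative ones.

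MHC class II was high in the selected cells. Summed over the list of 8 genes its level was 58754 to 60922 CPM in the 4 libraries, a narrow range, against 18935 to 32627 CPM in other phagocytes. Of the 8, 6 were higher, 1 was lower and 1 did not pass (median log2 fold change 1.18), and against Lyve1-negative phagocytes 4 were higher and 1 lower (median 0.81). None was lower than in other phagocytes once the cells with Cd3e were left out. Cd74, the invariant chain, was at 31575, 29071, 30652 and 34199 CPM against 15398, 9571, 11320 and 13545, with a log2 fold change of 1.40 ± 0.19. H2-Aa, H2-Ab1 and H2-Eb1, the chains that present peptide, rose by 1.21 ± 0.19, 1.27 ± 0.19 and 1.36 ± 0.19, and Ciita, the transcription factor that turns the class II genes on, by 1.15 ± 0.29. The 4 genes Cd74, H2-Aa, H2-Ab1 and H2-Eb1 were also higher against Lyve1-negative phagocytes, by 0.88 to 1.10. H2-DMb2, which encodes a chain of the peptide-loading chaperone, was the lower one, with 7 UMIs and a call against other phagocytes that was lost without Lox_CTR (-0.67), KO_CTR (-1.58) or the cells with Cd3e (-1.58).

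Dendritic cell genes other than Cd207 did not form a set that was higher. Of 14, 8 could be tested against other phagocytes, with 3 higher, 3 lower and 2 not past the threshold (median -0.63), and 2 higher without the cells with Cd3e. Flt3, by which conventional dendritic cells are recognised, was excluded by the selection. Zbtb46, the transcription factor of conventional dendritic cells, and Cd209a had no UMI in the 56 cells. Zbtb46 was found in only 4.08% of other and 3.21% of Lyve1-negative phagocytes, so that its absence from 56 cells says little. Cd209a was at least 18.2-fold lower than in other phagocytes, which still held cells with Flt3. It was not among the genes called against Lyve1-negative phagocytes, from which cells with Flt3 had been removed by the same rule. Clec10a, a lectin of dendritic cells and macrophages, fell by 3.56 (SE 0.37). Irf8, a transcription factor of monocytes and dendritic cells, was at 136, 172, 171 and 167 CPM against 56.0, 107, 111 and 89.4, with a log2 fold change of 0.98 ± 0.23 that no longer passed without Lox_CTR (0.84). The other 2 called genes, Ccr7 and Naaa, did not keep their calls either, Ccr7 without Lox_CTR (1.32), KO_CTR (not tested), Lox_HFD (1.60) or the cells with Cd3e (not tested) and Naaa without Lox_CTR (-0.77), KO_CTR (-0.95), Lox_HFD (-0.65) or the cells with Cd3e (-0.76).

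Chemokine and cytokine genes split into some that were high and others that were low. Of 25, 9 were higher, 8 lower and 8 not past the threshold against other phagocytes (median -0.04), and 8, 6 and 11 against Lyve1-negative phagocytes (median 0.01). Without the cells with Cd3e 8 were higher and 8 lower, and 7 and 6 against Lyve1-negative phagocytes, since Ccl5, a chemokine of T cells, went from a log2 fold change of 2.55 to -0.31. Cxcl16, a chemokine and scavenger receptor for oxidised lipid, was at 381, 463, 977 and 719.9 CPM against 156, 164, 115 and 161, and rose by 2.02 ± 0.22, as it did against Lyve1-negative phagocytes (2.02 ± 0.25). Ccl4 was at 2053, 2263, 5434 and 1919.6 CPM against 560.2, 1151, 288 and 789.7, and Ccl3 was at 617, 784, 754 and 626 CPM against 331, 287, 99.2 and 221. These CC chemokines, which attract leukocytes, rose by 2.08 ± 0.26 and 1.67 ± 0.22, and lay above other phagocytes in 4 of 4 libraries.

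The interleukin 1 genes differed among themselves. Il1b was at 2474, 2286, 4269 and 2634 CPM against 895, 929.8, 1381 and 1158, with a log2 fold change of 1.44 ± 0.18. Against Lyve1-negative phagocytes it was 0.60 ± 0.16 (adjusted p = 0.027, edgeR), and that call was lost without Lox_CTR (0.62), Lox_HFD (0.43) or KO_HFD (0.65). Il1a rose by 1.59 ± 0.34 against other phagocytes, a call lost without Lox_CTR (0.99), and did not pass against Lyve1-negative ones (0.96 ± 0.39). Il1rn, the antagonist of the interleukin 1 receptor, did not pass against other phagocytes (-0.71 ± 0.32) and was lower than in Lyve1-negative ones (-1.62 ± 0.34), a call lost without Lox_CTR (-1.67). Tnf rose by 0.91 ± 0.21 against other and by 1.05 ± 0.21 against Lyve1-negative phagocytes, the latter not past the threshold without Lox_CTR (0.88). Sdc4, the heparan sulfate proteoglycan syndecan 4, rose by 1.04 ± 0.21 and 1.48 ± 0.25.

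Ccl2, Ccl6, Ccl9 and Ccl24 were lower in both comparisons. Ccl2, the ligand of CCR2, was at 153, 344, 68.6 and 214 CPM against 1330, 1212, 664 and 997, and fell by 2.42 (SE 0.24). Ccl6, Ccl9 and Ccl24 had log2 fold changes of -2.80 ± 0.24, -1.47 ± 0.25 and -5.71 ± 0.47 against other phagocytes. Ccl7 and Ccl8 fell against other phagocytes (-2.25 and -3.78) but did not pass against Lyve1-negative ones (-0.86 and -0.54), among which Lyve1+ cells had been removed by construction. Il6 had 2 UMIs in the 56 cells and fell by 4.18 (SE 0.67). Cxcl2, the most abundant chemokine of the list, did not pass (0.07 ± 0.21).

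Of 8 genes by which the study recognised aortic intima resident macrophages, besides Cd72 and Acp5, 7 were higher in the selected cells than in other phagocytes and 1, Cxcl1, was lower (median 1.18). Cxcl1, Nlrp3, Sdc4, Cxcl16 and Ccl3 were used there for proinflammatory macrophages too. The markers came from earlier work and were assigned to a cell cluster in these libraries, and the list was taken with those results known, so it is no independent evidence. The 7 were Ctss, Mpeg1, Ccrl2, Nlrp3, Sdc4, Cxcl16 and Ccl3. Mpeg1, the pore-forming perforin 2 of macrophages, rose by 1.41 ± 0.21, Ccrl2, an atypical chemokine receptor, by 1.14 ± 0.21, and Nlrp3, the inflammasome sensor, by 0.88 ± 0.21, a call lost without Lox_CTR (0.67). Cxcl1 was at 654, 29.9, 0 and 115 CPM against 486, 373, 203 and 334, so that it was above other phagocytes in Lox_CTR and below in the other 3 libraries, and its call was lost without KO_CTR (-0.72) or Lox_HFD (-0.84). Against Lyve1-negative phagocytes 6 of the 8 were higher and none was lower (median 0.82), with Ccrl2 and Cxcl1 not past the threshold. The call of Mpeg1 was lost there without Lox_CTR (0.63), KO_CTR (0.68) or KO_HFD (0.55), and that of Nlrp3 without Lox_CTR (0.53), KO_CTR (0.83) or Lox_HFD (0.75).

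Among genes of the macrophage core complement was higher and lysozyme lower. Of 12, 6 were higher and 2 lower against other phagocytes (median 0.60), and against Lyve1-negative phagocytes 7 were higher and 2 lower (median 0.90). In both comparisons 8 were higher without the cells with Cd3e. Complement C1qb was at 5362, 5116, 4834 and 6202 CPM against 3385, 3269, 1949 and 3556, and rose by 0.90 ± 0.18. C1qa and C1qc rose by 0.78 ± 0.18 and 0.67 ± 0.18, and against Lyve1-negative phagocytes all 3 rose by 1.49 to 1.58. Lyz2, the macrophage lysozyme, was at 4918, 4937, 549 and 4053 CPM against 13907, 9023, 8899.5 and 8612, and fell by 1.64 (SE 0.26). Itgam, which encodes CD11b, fell by 1.25 (SE 0.28), so that the cells had more of the CD11c gene and less of the CD11b gene than other phagocytes. Adgre1 rose by 0.71 ± 0.22 against other phagocytes, a call lost without Lox_CTR (0.74), KO_CTR (0.51) or KO_HFD (0.72), and by 1.13 ± 0.22 against Lyve1-negative ones.

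Several genes known from microglia were high as well. Of 10 tested, 5 were higher, 1 lower and 4 not past the threshold (median 1.04), and against Lyve1-negative phagocytes 4 of 7 were higher and none lower (median 1.26), or 5 without the cells with Cd3e. Cx3cr1, the fractalkine receptor, was at 196, 403, 257 and 266 CPM against 51.8, 124, 96.4 and 107, with a log2 fold change of 1.67 ± 0.22. Tgfbr1, a receptor chain for TGF-beta, was at 271, 202, 360 and 292 CPM against 45.5, 60.6, 57.4 and 52.8 (2.42 ± 0.22). Both were higher in 4 of 4 libraries and against Lyve1-negative phagocytes too. Tmem119 had 27 UMIs and Olfml3 43, and their calls were lost without Lox_CTR (1.67) or KO_HFD (1.64) and without Lox_CTR (1.33), while P2ry12 and Siglech did not pass and Sall1, a transcription factor of microglia, had no UMI in any phagocyte. Gpr34 was the gene that was lower.

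Among inhibitory and activating receptors, the family to which Cd72 belongs, 6 were higher, 1 lower and 10 not past the threshold of 17 tested (median 0.14), with none lower without the cells with Cd3e. Fcgr4, an activating receptor for IgG, was at 112, 202, 223 and 146 CPM against 24.6, 32.9, 45.1 and 29.8, and rose by 2.40 ± 0.25. Clec4n, the lectin Dectin-2, rose by 2.18 ± 0.25 and Lair1, an inhibitory collagen receptor, by 1.60 ± 0.23. These 3 were higher in each library and against Lyve1-negative phagocytes (1.64 to 2.03). Ptpn6, the phosphatase SHP-1 that binds the inhibitory motif of Cd72 and related receptors, was at 182, 187, 189 and 209 CPM against 105, 122, 159 and 114 (0.73 ± 0.22), a call lost without Lox_CTR (0.70), KO_CTR (0.71) or KO_HFD (0.66). Cd300a lost its call without Lox_CTR (0.72), and Cd83, a marker of activated antigen-presenting cells, without Lox_CTR (0.53), Lox_HFD (0.50) or KO_HFD (0.60). Fcgr2b, the inhibitory IgG receptor, was the lower one, and its call was lost without KO_CTR (-0.58), Lox_HFD (-0.55), KO_HFD (-0.74) or the cells with Cd3e (-0.55).

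Lipid-handling genes did not move as a group. Of 21 tested against other phagocytes, 6 were higher, 5 lower and 10 not past the threshold (median 0.15), with 7 higher and 4 lower without the cells with Cd3e. Against Lyve1-negative phagocytes 5 were higher and 4 lower, or 6 and 4 without the cells with Cd3e. Abcg1, a cholesterol exporter, was at 54.8, 59.8, 274 and 209 CPM against 21.3, 16.3, 117 and 54.7 (1.63 ± 0.27), with higher levels in both high-fat diet libraries in both cell sets, and its call against Lyve1-negative phagocytes was lost without Lox_CTR (1.07), KO_CTR (0.97), Lox_HFD (0.99) or KO_HFD (0.65). Cd9, a tetraspanin, was at 1015, 246, 531 and 376 CPM against 221, 191, 157 and 211 (1.38 ± 0.23), and Nceh1, a cholesteryl ester hydrolase, rose by 1.35 ± 0.29. Fabp5 and Fabp4, fatty acid binding proteins, fell against other phagocytes (-1.42 and -2.25), with the call of Fabp5 lost without Lox_HFD (-1.06).

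Trem2, Gpnmb and Spp1, which are known from foam cells in plaques, did not pass against other phagocytes. Trem2, the lipid-sensing receptor, was at 196, 82.2, 137 and 88.7 CPM against 82.6, 87.7, 74.1 and 118 (0.54 ± 0.26). With all selected cells it was thus higher in both Lox libraries and lower in both libraries labelled KO. In KO_CTR it had UMIs in only 2 of 10 cells, and without the cells with Cd3e it was at 93.9 CPM there, above other phagocytes. Against Lyve1-negative phagocytes it was at 0.99 and passed without the cells with Cd3e (1.09). Gpnmb had UMIs in Lox_HFD alone (9 in all) and Spp1 (osteopontin) had 14. Lpl, lipoprotein lipase, was lower (-0.90), with its call lost without Lox_CTR (-0.50), KO_HFD (-0.78) or the cells with Cd3e (-0.75), and so was the scavenger receptor Cd36 (-0.95), with its call lost without KO_HFD (-0.77). Lipa (lysosomal acid lipase), Cd63 and Tyrobp were higher than in other phagocytes by 0.72, 0.61 and 0.66, and their calls were lost without Lox_CTR (0.38) or Lox_HFD (0.67), without Lox_CTR (0.61), Lox_HFD (0.50) or KO_HFD (0.54) and without KO_HFD (0.62). Apoe was at 7242, 12115, 12411 and 9327 CPM against 9286, 13843, 7422 and 8073, did not pass against other phagocytes and rose by 1.24 ± 0.14 against Lyve1-negative ones.

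**Figure D3:**
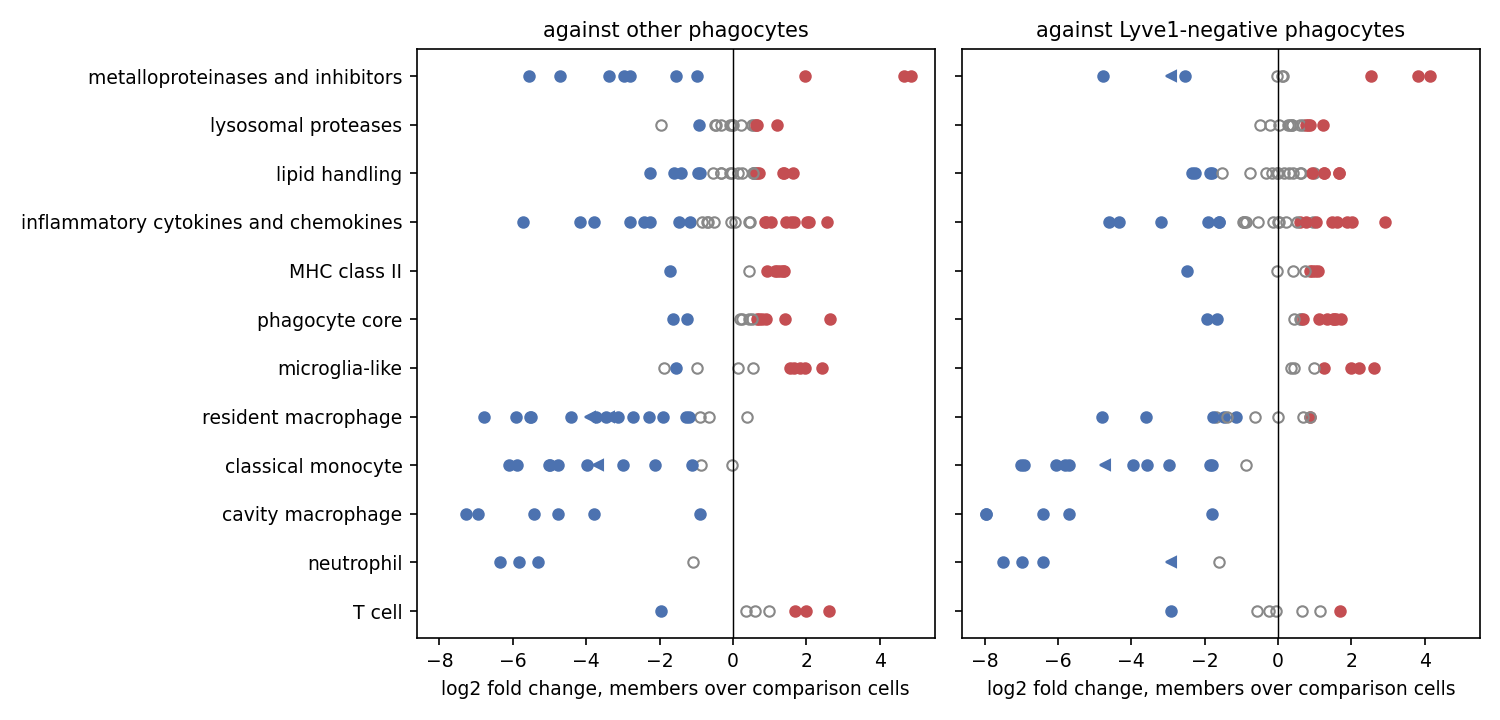
Log2 fold change of each tested gene (x axis) in 12 gene lists (y axis), against other phagocytes (left) and Lyve1-negative phagocytes (right). Red points are higher and blue points lower at an adjusted p below 0.05, open points did not pass, and triangles are bounds for genes without a UMI in the selected cells; MHC class II genes lie mostly on the right and classical monocyte genes on the left in both panels.

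Markers of blood monocytes and of neighbouring macrophage types were low. Of 12 classical monocyte genes, 10 were lower and none higher than in other phagocytes (median -4.36), and 11 were lower than in Lyve1-negative phagocytes (median -4.83). Without the cells with Cd3e the numbers were 11 and 12. Ly6c2, the antigen by which these monocytes are sorted, had no UMI in the 50 cells without Cd3e, and its 37 UMIs all came from the 6 with Cd3e. Fn1 (fibronectin) was at 37.5, 0, 17.1 and 36.5 CPM against 815, 368, 1083 and 798 and fell by 4.76 (SE 0.31). Ccr2, the receptor by which monocytes follow Ccl2, was at 23.1, 0, 154 and 183 CPM against 239, 192, 626 and 319, and fell by 2.12 (SE 0.32). Its level was higher in the high-fat diet libraries in both cell sets, but it had UMIs in only 5 of the 56 selected cells. In KO_HFD these were 2 cells, 1 of them with Cd3e, without which the level there was 100 CPM. Chil3 and Hp had 1 UMI each, with log2 fold changes of -5.89 and -6.09. F10, coagulation factor X, had none and was at least 12.7-fold lower than in other and 26.5-fold lower than in Lyve1-negative phagocytes.

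Resident macrophage genes were lower in 15 of 18 and higher in none against other phagocytes (median -3.30), a direction partly set by the exclusion of Lyve1+ cells from the selected cells only. Against Lyve1-negative phagocytes 5 of 12 tested were lower and 1 was higher (median -1.26). Cd163, a haemoglobin scavenger receptor, had log2 fold changes of -5.53 ± 0.42 and -3.60 ± 0.53 in the 2 comparisons, and F13a1, the factor XIII A chain, of -5.90 ± 0.34 and -4.79 ± 0.40. Mrc1, the mannose receptor, was at 245, 276, 85.7 and 177 CPM against 909, 1277, 1003 and 998, with log2 fold changes of -2.29 and -1.14. Hmox1, the haem-degrading enzyme, was at -2.71 ± 0.28 and -1.78 ± 0.27. Timd4, a receptor for dying cells, had no UMI and was at least 14.9-fold lower than in other phagocytes. Pf4, Maf, Stab1 and Igf1 did not pass against Lyve1-negative phagocytes.

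Genes of cavity-type macrophages and of neutrophils were lower by still larger amounts. Retnla, a secreted resistin-like protein, was at 37.5, 29.9, 34.3 and 20.9 CPM in the selected cells against 7419, 1005, 4724 and 5409 in other phagocytes, the largest fall among genes with UMIs in the selected cells (-7.27 ± 0.32), and was lower against Lyve1-negative phagocytes too (-7.97 ± 0.37). Lyz1 fell by 6.93 (SE 0.39), and all 6 tested genes of that list were lower (5 without the cells with Cd3e). S100a8 and S100a9, calgranulins of neutrophils and monocytes, had log2 fold changes of -6.36 ± 0.35 and -5.83 ± 0.29, and Ngp, a granule protein gene, of -7.02 ± 0.59. Among nonclassical monocyte genes Treml4, Spn and Adgre4 did not pass in either comparison, Pglyrp1 was lower in both, Ace was lower in both with its call against Lyve1-negative phagocytes lost without KO_HFD (-1.98), and Cd300e had no UMI. Of the genes that led the decrease against Lyve1-negative phagocytes, Wfdc21, Tiam1, Ceacam1 and Upb1 had no UMI in the selected cells and were at least 26.6, 13.8, 12.7 and 12.5-fold lower.

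Markers of other cell types were measured beside these results. T cell genes summed to 349 to 806 CPM in the selected cells and to 124 to 521 CPM in other phagocytes, and to 88.1 CPM over the 50 cells without Cd3e. Cd3d and Cd3e were higher with all selected cells and had too few UMIs to be tested without the 6. Fibroblast and smooth muscle genes were lower in all 8 and all 6 tested against other phagocytes, and none of 8 and of 5 passed against Lyve1-negative phagocytes, with edgeR or with DESeq2 (1 and 0 at an unadjusted p under 0.05 with edgeR), in which cells with Pdgfra or more than 2 Myh11 UMIs had been removed by the same rule. Their summed levels were 883 and 357 CPM in the selected cells and 1034 and 359 CPM in Lyve1-negative phagocytes. Of 6 endothelial genes, which summed to 21.9 CPM against 32.1 in other and 23.0 in Lyve1-negative phagocytes, Cdh5, Tie1, Egfl7 and Kdr were at 0 in all 56 cells and Pecam1 did not pass (0.54 and 0.64). B cell genes summed to 167 CPM, against 233 in other and 114 in Lyve1-negative phagocytes, most of it Ighm, which did not pass (0.15 and 0.56). Ms4a1 was at 0 and Ebf1 was lower than in other phagocytes (-3.18). Cd79b, a chain of the B cell receptor complex, was at 17.3, 37.3, 34.3 and 36.5 CPM against 9.31, 26.6, 4.46 and 7.45 and rose by 1.42 ± 0.50, a call lost without Lox_CTR (1.68), Lox_HFD (1.26), KO_HFD (1.05) or the cells with Cd3e (1.30). Against Lyve1-negative phagocytes it rose by 1.85 ± 0.44, a call lost without Lox_CTR (1.98) or KO_HFD (1.89). Cells with its partner Cd79a had been excluded by the selection. The part of these transcripts in the results was not tested. Neutrophil genes summed to 57.5 CPM, against 3110.2 in other phagocytes.

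Genes of division, interferon response, stress and Nrf2 were counted in the same way. Of 10 cell cycle genes 1 (Cdk1) was higher, and its call was lost without Lox_CTR (1.15), KO_CTR (1.36) or KO_HFD (1.03). Mki67 had UMIs in 7 of the 50 cells, and 97.0% of the Top2a UMIs were in 3 cells. Interferon-stimulated genes summed to 234 CPM against 472 in other phagocytes. Of 10 tested 3 were lower (median -1.41), or 4 with Irf7 without the cells with Cd3e, and against Lyve1-negative phagocytes 1 of 9 was lower (median -1.15). Of the 3, Ifit3 lost its call without KO_HFD (-3.21) and Rsad2 without KO_CTR (-1.30) or KO_HFD (-2.56), and Iigp1 had no UMI and was at least 6.23-fold lower. Of 13 Nrf2 target genes and regulators 3 were higher, Hmox1 was lower and 9 did not pass (median 0.22). Nfe2l2 itself was at 619.85, 590.1, 1251 and 741 CPM against 397, 413, 465 and 446, and rose by 0.87 ± 0.19. Fth1 (ferritin heavy chain) lost its call without Lox_CTR (0.61) or KO_HFD (0.65) and Prdx1, a peroxidase, without Lox_CTR (0.40) or KO_HFD (0.55). Against Lyve1-negative phagocytes Nfe2l2 and Fth1 were both higher. There the call of Nfe2l2 was lost without Lox_CTR (0.70), KO_CTR (0.675), Lox_HFD (0.48) or KO_HFD (0.73), and that of Fth1 was kept without each library in turn. Among immediate early genes, which also rise while tissue is digested, 3 of 13 were lower against other phagocytes (2 without the cells with Cd3e), of which Ier3 (-1.63 ± 0.23) was past the threshold without each library in turn. Fos lost its call without Lox_CTR (-0.54) and Jun without Lox_CTR (-0.50), Lox_HFD (-0.44) or the cells with Cd3e (-0.50). Against Lyve1-negative phagocytes Egr1 and Atf3 were higher by 0.69 and 0.61, with calls lost without Lox_CTR (0.64) or KO_HFD (0.68) and without KO_CTR (0.61), Lox_HFD (0.53) or KO_HFD (0.53).

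The selected cells varied among themselves. Of the 50 without Cd3e, 23 had UMIs of all of Mmp12, Mmp13 and Cd207 and 5 had none of them. The 42 cells with Mmp12 held 37783 CPM of Cd74, 7230.4 of Apoe, 3737 of Lyz2, 295 of Adgre1 and 183 of Mrc1. The 8 cells without Mmp12, of which 4 were from KO_CTR, 2 from Lox_CTR and 2 from KO_HFD, held 17095, 24652, 10209, 660.5 and 554 CPM. The 8 thus had less of the invariant chain and more Apoe, lysozyme and mannose receptor. They also had 38.9 CPM of Zmynd15 and 29.1 of Cadm1, against 333 and 217 in the cells with Mmp12. These groups were formed from the values and are given as a description.

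H2-M2 was found in part of the cells with Mmp12. All 25 cells with H2-M2 also had Mmp12, and they held 2785 CPM of Mmp12, against 758 CPM in the 25 cells without H2-M2. They held 11834 CPM of H2-Ab1 and 78.2 of Trem2, against 7005 and 237 CPM. Cd207 had a different distribution. The 5 cells with at least 30 UMIs of Cd207 had 36 to 148 each and were all from Lox_CTR, 2 of them had H2-M2, and their level of H2-Ab1 was 4685 CPM.

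Between libraries the selected cells could be compared only as 1 pool against another, with 5 to 26 cells in each, so that single cells weigh on a ratio. For high-fat diet with the vector against standard diet with saline in the Lox libraries, 837 genes were ranked. They had at least 20 UMIs in both libraries together and 200 CPM in the higher one, with a median log2 ratio of -0.01. The markers Mmp12 and H2-Ab1 differed little, with log2 ratios of 0.15 (-0.16 to 0.45) and 0.12 (-0.01 to 0.25). The summed levels of Ctss and Il1b were higher under high-fat diet, by 0.51 (0.29 to 0.73) and 0.79 (0.58 to 0.99), as they were in other phagocytes (0.75 and 0.63). In Lox_HFD, however, 1 cell held 117 of the 206 UMIs of Ctss. Il1b had UMIs in 3 of its 5 cells, of which 2 held 127 and 106 of the 249 UMIs. Mmp13 was lower, with a ratio of -1.74 (-3.21 to -0.57), and all of its 6 UMIs in Lox_HFD came from 1 cell.

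Among the genes that differed most in that pair, Rgs2, a regulator of G protein signalling, was 3.04 (2.37 to 3.72) higher in Lox_HFD and was present in 5 of its 5 cells, against 0.69 in other phagocytes. The 16 UMIs of Grasp and the 22 of Ptgs2 in Lox_HFD each came from 1 cell. Dusp6, Dnmt3a and Irs2 were higher with 13, 13 and 21 UMIs in 4, 3 and 3 cells. S100a6, a calcium-binding protein, had 1 UMI in Lox_HFD against 273 in Lox_CTR (-5.52), while in other phagocytes it was 0.32 higher. S100a10, Stmn1, Pf4 and Rhoc were also lower, with ratios of -4.77, -4.27, -4.17 and -3.85, and Cd207 had 0 against 500 UMIs, a log2 ratio of at most -4.81. For Stmn1, 1 cell held 69 of the 115 UMIs of Lox_CTR.

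For the library labelled KO against Lox under high-fat diet, 848 genes were ranked, with a median of 0.02. Mmp12 and Ctss differed by less than their counting error, with ratios of -0.14 (-0.46 to 0.18) and -0.16 (-0.39 to 0.08). Mmp13 was higher in KO_HFD by 2.64 (1.48 to 4.12) and was found in 10 of its 15 cells, with 1.12 (-0.04 to 2.46) in other phagocytes. S100a6 and S100a10 were higher by 4.90 and 4.76, with 49 of 98 and 47 of 89 UMIs in 1 cell. Without the cells with Cd3e the ratios of S100a6 and S100a10 were at least 2.21 and 2.53. Stmn1, Hist1h4d and Hist1h2ap, genes of dividing cells, were higher through 1 cell of KO_HFD in each case, with 96 of 107, 68 of 81 and 57 of 57 UMIs, and 165 of the 224 UMIs of Pf4 were in 1 cell. Sgk1, Ptgs2, Irs2, Trbc2, Zfp703 and AA467197 were lower, with ratios of -4.30, -3.59, -3.30, -3.08, -2.96 and -2.72, and 1 cell of Lox_HFD held 18 of 36, 22 of 22, 16 of 21, 17 of 18, 11 of 19 and 18 of 18 of their UMIs there. Trbc2 is a T cell gene, and without the cells with Cd3e it had too few UMIs for a ratio. Nfe2l2 had a ratio of -0.76 (-1.17 to -0.33), with 46 of its 73 UMIs in Lox_HFD in 1 cell.

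For the same labels under standard diet, 788 genes were ranked, with a median of -0.06. Nfe2l2 had a log2 ratio of -0.07 (-0.46 to 0.31), Ctss of -0.01 (-0.19 to 0.18) and Mmp12 of -0.24 (-0.48 to 0.00). H2-M2 and Mmp13 were higher in KO_CTR by 1.22 (0.95 to 1.50) and 1.03 (0.63 to 1.44), while in other phagocytes the ratios were -0.53 and -0.04. H2-M2 was found in 4 of 10 cells of KO_CTR against 14 of 26 of Lox_CTR, and 2 cells held 78 and 85 of its 209 UMIs in KO_CTR, where 1 cell held 48 of the 94 UMIs of Mmp13. Cd207 was lower, with -2.69 (-3.27 to -2.15), as it was in other phagocytes (-3.95). The RNAs that were highest in KO_CTR, Gm26778, Gm42418 and Lars2 (3.91, 2.71 and 2.11), were high in its other phagocytes too (3.43, 2.04 and 1.47), so that the difference was seen in both cell sets. Hist1h4d rose through 1 cell (50 of 52 UMIs), Ets1 by 2.53, or 0.46 without the cells with Cd3e, and Cdkn1b, a cell cycle inhibitor, by 2.20 (1.33 to 3.12) in 8 of 10 cells.

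Gdf15, a stress-induced cytokine, had 0 UMIs in KO_CTR against 250 in 13 cells of Lox_CTR, a log2 ratio of at most -5.01, with -1.81 in other phagocytes. A single cell of Lox_CTR held 102 of these 250 UMIs. Cxcl1 had 4 against 227 UMIs (-4.45, and -0.38 in other phagocytes). S100a4, 2010111I01Rik, Capg and Tnfaip2 were lower, with ratios of -3.85, -3.80, -3.69 and -3.55, and -1.50, -0.40, -1.16 and -0.76 in other phagocytes. For S100a4, 1 cell held 43 of the 112 UMIs of Lox_CTR. Of the Nrf2 targets, Nqo1 had no UMI in any selected cell, and Gclm had 15, 4, 3 and 3 UMIs, so that a difference between labels was not detectable at this depth.

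**Figure D4:**
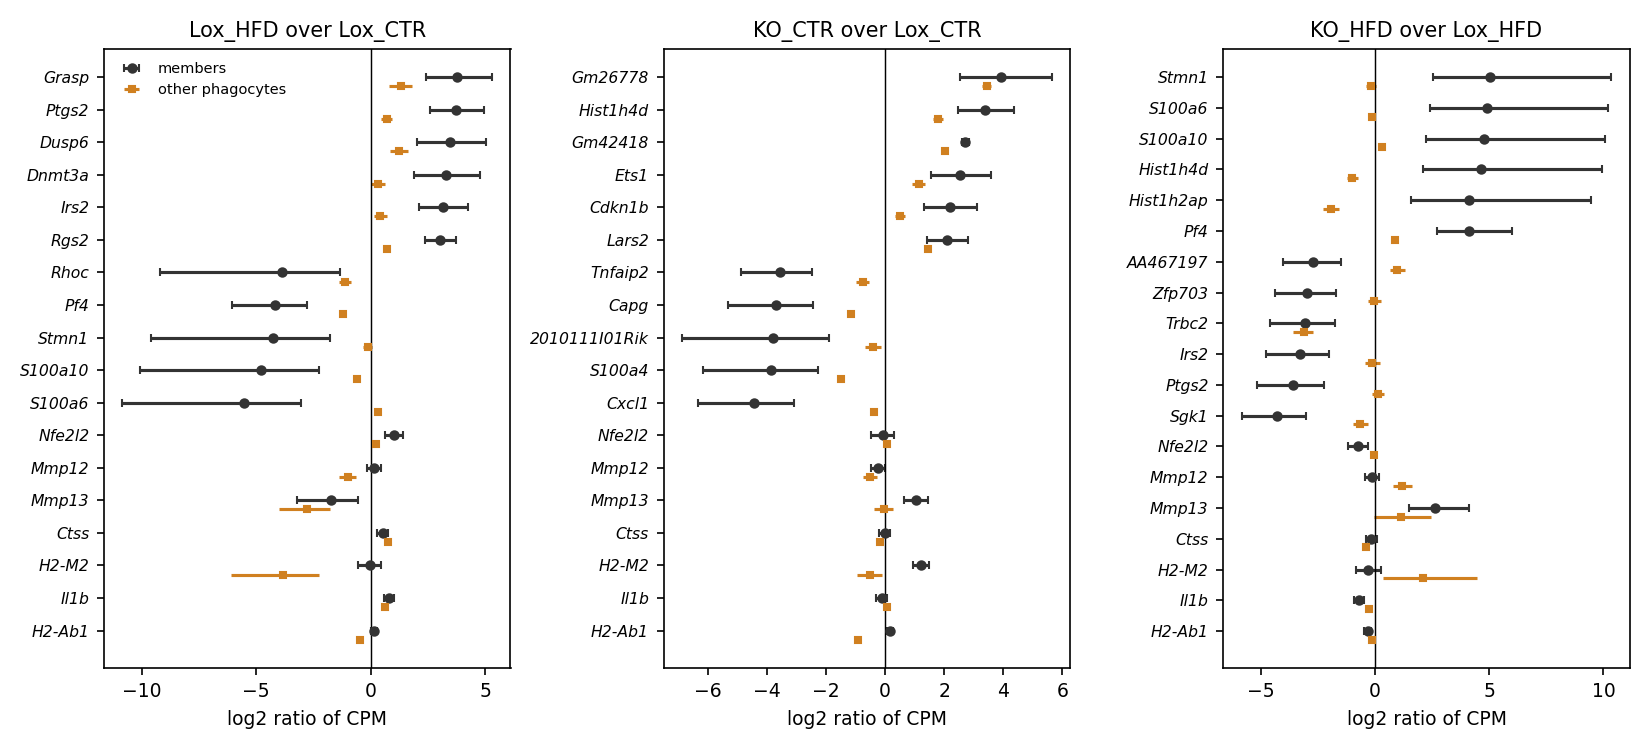
Log2 ratio of CPM between libraries (x axis) of the named genes (y axis) for high-fat diet with the vector against standard diet with saline in the Lox libraries, the label KO against Lox under standard diet and the same under high-fat diet. Values are given in Acp5+ Cd72+ cells (black) and other phagocytes (orange), and lines are 95% counting intervals. For the selected cells the ratios of Mmp12 and Ctss lie between -0.24 and 0.51 in all 3 panels, and the widest intervals belong to genes with few UMIs in a library.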

How the data were processed

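Per the labels and the study's methods, arches were digested, DAPI-negative cells were sorted, 10x 3′ v3.1 libraries were made and reads were counted on mm10 with Cell Ranger 6.1.2. The authors deposited UMI counts for 31053 features, not normalized, as 1 matrix per library, with no cell type annotation. All columns belong to a sample, and 0 were left unmapped. Kept cells had 200 to 6000 genes and at most 15% mitochondrial UMIs. Doublets were called with Scrublet within each library (357 kept cells) and removed only as an alternative.

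UMIs were summed per library and cell set. The sums were tested with edgeR 4.0.16 (R 4.3.3; TMM, filterByExpr, quasi-likelihood, library as block), without the 9 selection genes and mitochondrial genes, and tested on simulated data first. SE is the log2 fold change divided by the square root of F. The library as block was set because both cell sets come from the same pooled mice. Ratios between libraries have exact binomial intervals on the UMIs, shares have Clopper-Pearson intervals, and a floor of 3 counts over the group bounds genes without UMIs. Levels per cell were compared after thinning to 2500 UMIs. Tables were made with Python 3.11.15 and its packages pandas 2.3.3, scanpy 1.11.5, scipy 1.17.1 and numpy 2.4.6, figures with matplotlib 3.10.9. Genes with near-identical copies, such as Lyz1 and Lyz2, the Cd209 family, Bcl2a1a and histone genes, are uncertain, since the way reads were split between copies is not given in the sources used here.

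Named genes were the selection genes, called members of gene lists by size, the 15 highest and 12 lowest genes against other phagocytes and 8 of each against Lyve1-negative phagocytes (at least 50 CPM, same direction in all 4 libraries), and 6 of each direction for every library pair. The selection, the lists and these rules were chosen with earlier results of these data known. Alternatives were other selection limits, a mitochondrial limit of 10%, no upper limit on genes, doublets removed, comparison cells matched in depth, DESeq2 1.42.0, RLE size factors, no filter on low counts, no library block, means over cells, each library left out and, chosen after the data were seen, no cells with at least 2 Cd3e UMIs. Some genes that these rules or lists hold are not reported here by name, and list counts include them.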

Additional observations from a re-analysis of the deposited data

Results flagged for a closer look

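The difference between the Acp5+ Cd72+ cells and other phagocytes went one way in both libraries of one condition and the opposite way in both libraries of the other for 3 genes. With 2 libraries on each side, these differences were not tested. Diet stands here for high-fat diet with the vector against standard diet with saline. Values are differences of log2(CPM + 1), in the order Lox_CTR, KO_CTR, Lox_HFD and KO_HFD.

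Apoe, which encodes apolipoprotein E, was at -0.36, -0.19, 0.74 and 0.21, lower than in other phagocytes under standard diet and higher under high-fat diet, a difference between the diets of 0.75. Cxcl2, a chemokine for neutrophils, was at 0.38, 0.93, -0.82 and -0.48, the opposite order, with a difference between the diets of -1.30. Trem2 was at 1.24, -0.09, 0.88 and -0.41, higher than in other phagocytes in both Lox libraries and lower in both libraries labelled KO, with a difference between the labels of -1.31. These values are from all selected cells, and those of KO_CTR depended on its cells with Cd3e. Without the cells with Cd3e, Trem2 was at 93.9 CPM in KO_CTR, above other phagocytes, so that the opposite direction by label did not hold there. Apoe was then at 13820 CPM in KO_CTR, about the level of other phagocytes. None of the 3 genes passed the threshold against other phagocytes over all libraries.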

How the results depend on the processing

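The limits are the 56 cells, 26 of them from Lox_CTR, the 5 cells of Lox_HFD, 1 pooled library per condition, and intervals that cover counting error only. Counts of genes stayed within 1.5 times except with a library left out, comparison cells matched in depth, DESeq2 or no filter on low counts. The genes behind a count could change more. With Cd72 at 1 UMI, 486 genes were higher than in other phagocytes, but only 190 of the 330 were among them. Of the 650 lower genes 561 were kept. Against Lyve1-negative phagocytes 135 of the 252 higher and 221 of the 287 lower genes were kept. With 1 library left out at a time, the numbers higher and lower ranged from 205 to 364 and from 459 to 711 against other phagocytes, and from 108 to 221 and from 125 to 260 against Lyve1-negative phagocytes, each lowest without Lox_CTR. With comparison cells of 7164 to 19305 UMIs, 407 genes were lower than in other phagocytes and 146 higher than in Lyve1-negative ones. DESeq2 called 398 lower than in other phagocytes, and without a filter on low counts 509 were lower than in Lyve1-negative ones. The cause was not tested.

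The library as block pairs the cell sets of the same mice. With no library block the 4 numbers were 252, 513, 198 and 220, and the block itself is part of the reported test. No paired analysis was possible between conditions because each has 1 library.

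The share was 5.26% with Cd72 at 1 UMI and 2.31% with Acp5 at 2. With Cd72 at 1 UMI, which adds 32 cells, 15 of them with at least 2 Cd3e UMIs, the log2 fold change of Apoe against other phagocytes became -0.40 and that of Cd2 0.038. The ratio of Stmn1 for diet became 0.33, and for label under high-fat diet those of Stmn1, S100a10, Hist1h4d and Hist1h2ap became -0.28, -0.083, -1.54 and -1.13. Under standard diet S100a4 became 0.17 and H2-Ab1 -0.59. With Acp5 at 2 UMIs, Cd3d and Cd3e became -0.028 and -0.26 against other phagocytes, and for label under standard diet Ets1 became -0.17 and Mmp12 0.15. Without the cells with Cd3e, Ccl5 became -0.31. As a mean over cells, Il1b and H2-Ab1 for label under high-fat diet became 0.11 and 0.48, and H2-Ab1 under standard diet -0.027. These reversed their sign. Of the other values of named genes, 1972 against other phagocytes, 1873 against Lyve1-negative phagocytes and 336 between libraries kept direction and side of the threshold or moved within error, and 209 and 137 calls were lost. In the same order, 23, 38 and 45 values were counted as moved beyond that, and 19 and 43 of the first 2 kinds as stronger. The ratios between libraries depended most on the limit for Cd72. With Cd72 at 1 UMI, 28 of them stayed the same, 23 moved and 7 reversed.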
